A study of Rattus norvegicus with 24 samples.

Results

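Rat kidney RNA of the Dahl salt-sensitive strain (SS) was compared between 3 days and overnight on the diet labelled HS, on 12 of the 24 arrays of the series. Each array paired the total RNA of an SS rat labelled HS with that of an SS rat labelled LS, taken here as high and low salt, one in Cy5 and the other in Cy3. The arrays were chosen by their titles and fell into 3 rat pairs at 3 days and 3 rat pairs overnight, each pair hybridised on 2 arrays with the dyes swapped. The other 12 arrays had the same layout in SS-13BN/Mcw, the consomic strain in which SS chromosome 13 is replaced by that of Brown Norway rats. The low-salt rats are numbered 1 to 3 in the titles of both times, so they are taken here as animals that both groups share, while the high-salt rats carry different numbers at the 2 times. Sex, age, salt content and the part of the kidney were not given in the sources used here.

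The value followed here is the pair value, the mean log ratio of both dye-swapped arrays of a rat pair after each array was centred on its median. The deposited log ratios do not state their base or which rat is the numerator, so no folds are given. A value is called positive or negative as deposited, and "higher" or "lower" means a ratio more positive or more negative at 3 days than overnight, not higher or lower with salt. An array held values for 877 to 1303 probes. With so few arrays a group, their number sets the precision.

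The SS rat is an inbred model of hypertension that develops with dietary salt, and its kidney is both a cause and a target of the raised pressure. The kidney answers a salt load by changing sodium reabsorption along the tubule, through transporters such as the aldosterone-regulated epithelial sodium channel and the sodium pump. Over days of salt, the SS kidney is also known for inflammation, matrix deposition and tubular injury.

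No gene passed the test of 3 days against overnight in SS. In a limma fit over all 12 rat pairs of both strains, 0 of 880 probes tested (0%) passed a Benjamini-Hochberg adjusted p of 0.05, and the smallest adjusted p was 0.988. Without adjustment 17 probes (1.93%) lay under an unadjusted p of 0.05, 7 higher (0.795%) and 10 lower (1.14%) at 3 days. With the low-salt rat as a block, 0 passed (smallest adjusted p = 0.553) and 34 (3.86%) lay under 0.05 unadjusted. In that fit without a block, every SS difference between times given below therefore missed the threshold, with an adjusted p of at least 0.988. SE is the standard error of a difference and CI its confidence interval, both from the fit without a block.

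The sizes behind that result are given in units of the deposited log ratio, whose base is not stated. The absolute difference between times had a median of 0.0763 and a 95th percentile of 0.249 over the 880 probes, and the largest was 0.747. The median half-width of the 95% confidence interval of a difference was 0.288. For 681 probes (77.4%) the whole interval lay within 0.5 of 0 on either side, and for 67 (7.61%) within 0.25. A p that misses the threshold does not show that a gene was the same at both times. For most probes a difference under 0.25 was not detectable in the fit without a block. Of the 880 differences 360 were positive and 520 negative, with a median of -0.0267.

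**Figure D1:**
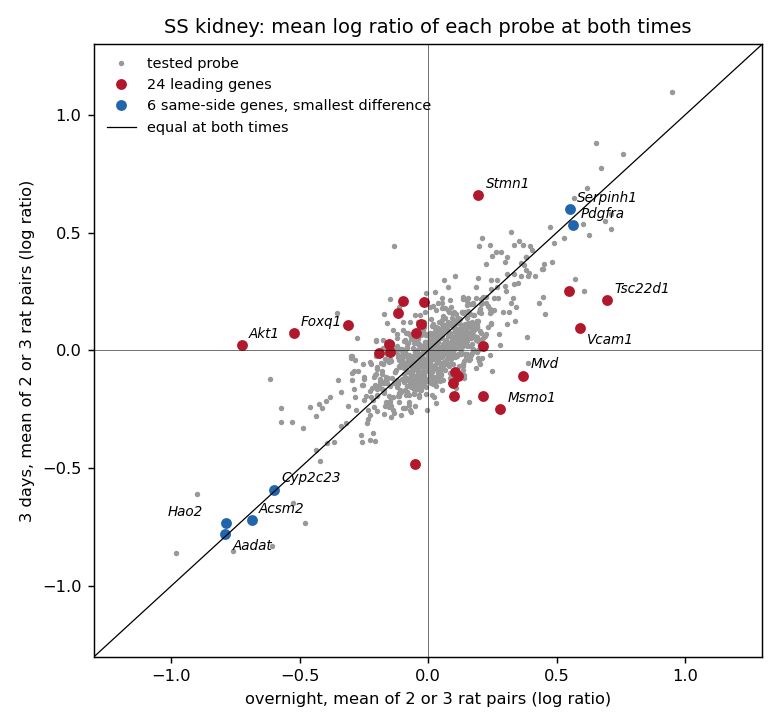
Mean log ratio of each of the 880 tested probes overnight (x axis) and at 3 days (y axis) in SS kidney, over 2 or 3 rat pairs a time. Most probes lie near the line of equality, the 24 leading genes in red lie off it, and the 6 same-side genes in blue lie beyond 0.5 on one side at both times.

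The pairs of a group differed among themselves. At 3 days the pair values of rats 1 and 2 correlated across probes with r = 0.491, those of rats 1 and 3 with r = 0.0550 and those of rats 2 and 3 with r = 0.0234. Overnight the same pairings gave 0.569, 0.449 and 0.201. These correlations are across genes, which are not independent replicates. The titles of the 3-day arrays carry the numbers 36 to 41 and those of the overnight arrays 18 to 23. What these numbers count is not said in the titles. If they give an order of slides, that order and time cannot be told apart in SS. The unadjusted count of 17 was 37 without overnight rat 3, 31 without 3-day rat 1, 26 without 3-day rat 3, 11 without 3-day rat 2, 9 without overnight rat 1 and 8 without rat 2 at both times.

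The members described first are the leading genes, 12 in each direction with the smallest p among genes whose pair values did not overlap between the times. Over all probes 66 (7.5%) did not overlap, 23 higher (2.61%) and 43 lower (4.89%). Of the 24 leading genes 14 lay under an unadjusted p of 0.05, and 15 had a value in all 6 pairs. Their direction follows from how they were chosen and is no support for a difference.

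Cholesterol synthesis held the 2 genes with the smallest p on the lower side, Msmo1 and Mvd, and all 7 of its tested enzymes had a lower ratio at 3 days. The pathway turns acetate units into mevalonate, isoprenoids, squalene and lanosterol, and then trims lanosterol to cholesterol. Its enzymes are switched on together by the transcription factor SREBP-2 when the endoplasmic reticulum is short of sterol. Their promoters often pair an SREBP site with a CCAAT box, the site of NF-Y. For the 2 leading enzymes the 250 bases before the start site are shown as RefSeq gives them in the rat assembly GRCr8, 5′ to 3′ on the strand of the gene, with each CCAAT or its reverse complement ATTGG in capitals. The Msmo1 window is chr16:29746863-29747112 on the plus strand and the Mvd window is chr19:67414975-67415224 on the minus strand.
Msmo1: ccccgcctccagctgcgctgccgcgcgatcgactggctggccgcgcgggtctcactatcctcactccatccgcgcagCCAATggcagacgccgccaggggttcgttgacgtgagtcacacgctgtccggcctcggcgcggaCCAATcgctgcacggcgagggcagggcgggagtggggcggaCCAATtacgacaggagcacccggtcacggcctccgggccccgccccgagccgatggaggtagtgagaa
Mvd: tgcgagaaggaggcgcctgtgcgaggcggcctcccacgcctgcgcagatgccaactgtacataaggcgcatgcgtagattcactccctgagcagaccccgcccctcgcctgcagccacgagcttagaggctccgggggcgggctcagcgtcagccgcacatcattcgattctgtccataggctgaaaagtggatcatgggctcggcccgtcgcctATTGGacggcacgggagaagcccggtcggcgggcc

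The Msmo1 window holds 3 such boxes, the nearest 64 bases before the start site, and the Mvd window holds 1, at 31 bases. Of the 6 enzymes whose promoter was in the RefSeq promoters used, 4 held a CCAAT box on either strand, against 34% of 33469 promoter windows of the same length. For each enzyme only the first window listed was read, while the share is over all windows. The letters CACCCCAC, the core of the sterol regulatory element, were found on either strand in 0 of the 6 and in 2.32% of all windows. These 2 windows were chosen after the values were seen, and a match is a description of letters and not a site.

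Msmo1, the methylsterol oxidase that removes methyl groups after lanosterol, had pair values of 0.0081, -0.52 and -0.24 at 3 days, against 0.54, 0.26 and 0.036 overnight, for rats 1, 2 and 3. All 3 overnight values were positive, rats 2 and 3 were negative at 3 days, and each rat was lower at 3 days than overnight. The difference was -0.53 (95% CI -0.89 to -0.17), and with the low-salt rat as a block the adjusted p = 0.553. Mvd, which makes isopentenyl diphosphate from mevalonate diphosphate, had 0.043 and -0.26 (rats 1 and 2) at 3 days, against 0.45, 0.21 and 0.45 overnight. Its 2 measured pairs at 3 days lay below all 3 overnight pairs, with a difference of -0.48 (95% CI -0.82 to -0.13).

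Cyp51, the lanosterol demethylase, came next with 0.35, -0.17 and -0.017 at 3 days, against 0.63, 0.28 and 0.24 overnight. Each rat was lower at 3 days, though rat 1 at 3 days stood above rats 2 and 3 overnight. Its difference was -0.33 (95% CI -0.71 to 0.056), and -0.20 without overnight rat 1. Sqle, squalene epoxidase, had 0.32 and 0.049 (rats 1 and 2) at 3 days, against 0.56, 0.20 and 0.27 overnight, and was lower in both rats measured at both times (difference -0.16, SE 0.15, and -0.050 without overnight rat 1). Dhcr7, which catalyses the last step to cholesterol, had -0.23, -0.28 and 0.22 at 3 days, against 0.20, 0.16 and -0.018 overnight. Rats 1 and 2 were lower and rat 3 was higher at 3 days (difference -0.21, SE 0.26). Idi1, the isopentenyl diphosphate isomerase, had 0.16 and -0.053 (rats 1 and 2) at 3 days, against 0.57, -0.11 and 0.19 overnight, and its groups overlapped (difference -0.16, SE 0.29). Lss, which closes squalene epoxide to lanosterol, had -0.44 and 0.050 (rats 1 and 3) at 3 days, against -0.23, -0.15 and 0.033 overnight, the smallest difference of the enzymes at -0.080 (SE 0.18).

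**Figure D2:**
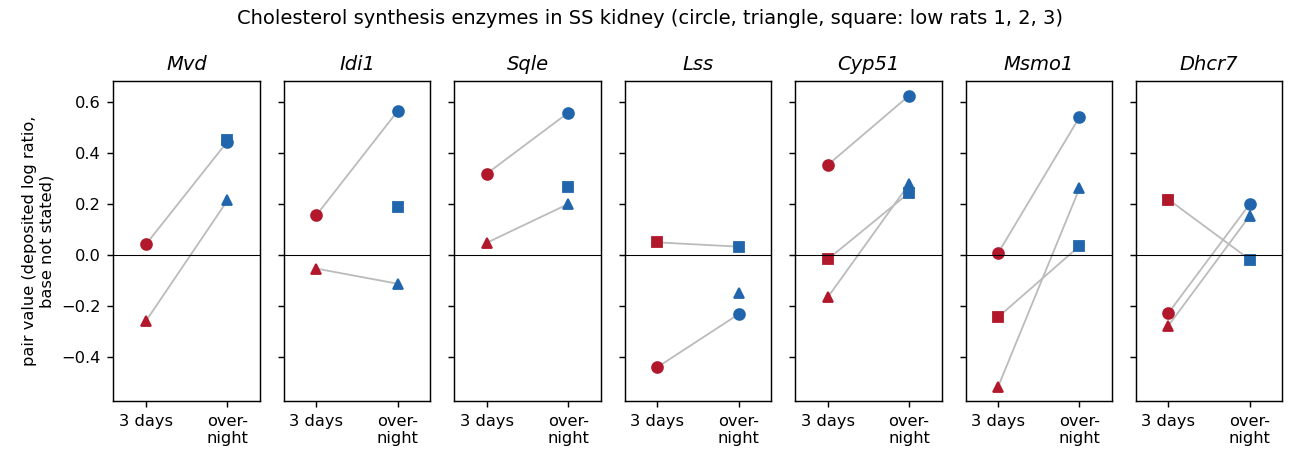
Pair values (deposited log ratio, y axis) of the 7 tested cholesterol synthesis enzymes in SS kidney at 3 days (left of each panel) and overnight (right), with a line joining the same low-salt rat. Both rats of Mvd and all 3 of Msmo1 and Cyp51 were lower at 3 days, while rat 3 of Dhcr7, rat 2 of Idi1 and rat 3 of Lss were higher.

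The median difference of the 7 enzymes was -0.21, against -0.025 for the 749 genes tested, of which 58.5% were lower. In the fit without a block 2 of the 7 lay under an unadjusted p of 0.05, beside 1.93% of all probes, and with the block 3 did, beside 3.86%. The 2 were Msmo1 and Mvd, by which this list was brought forward, so these shares are no support for a difference. The 7 enzymes were measured in the same few rats and are not independent counts. After adjustment 0 passed in either fit. Without overnight rat 1, 6 of 7 were lower with a median of -0.16, without 3-day rat 1 3 of 3 were lower with a median of -0.47, and without rat 3 at both times 6 of 6 were lower with a median of -0.39. Without 3-day rat 2, 4 of 4 were lower with a median of -0.17, and 1 lay under an unadjusted p of 0.05. Without rat 2 at both times, 4 of 4 were lower with a median of -0.18, and 0 lay under 0.05. Mvd was not tested in these last 2 settings. With arrays turned by dye 5 of 7 were lower with a median of -0.045. In SS-13BN/Mcw 5 of 5 tested enzymes were lower at 3 days with a median of -0.18. Of the 700 probes with a single symbol tested in both strains, 348 were higher there, with a median of -0.0025. For Msmo1 the SS difference minus the SS-13BN/Mcw difference was -0.25 (SE 0.23, adjusted p = 0.972).

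Akt1 had the smallest p of all probes tested. Akt1, the kinase downstream of insulin and growth factor receptors, had -0.086 and 0.13 (rats 1 and 3) at 3 days, against -0.79 and -0.66 (rats 1 and 2) overnight. The overnight values were far on the negative side and the 3-day values close to 0, with a difference of 0.75 (95% CI 0.39 to 1.11). Only rat 1 was measured at both times for this gene, which has 2 pairs a group. Grb2, the adaptor between receptor tyrosine kinases and Ras, had 0.034, 0.37 and 0.22 at 3 days, against -0.013, -0.20 and -0.085 overnight. Every pair was positive at 3 days and negative overnight, the differences by rat were 0.047, 0.57 and 0.31, and the group difference was 0.31 (SE 0.12).

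Gng7, a gamma subunit of heterotrimeric G proteins, had 0.078 and 0.24 (rats 1 and 2) at 3 days, against -0.089, -0.14 and -0.12 overnight (difference 0.27, SE 0.099). Nrgn, a calmodulin-binding protein best known from neurons, had the second smallest p but pair values that overlapped, 0.74, 0.56 and 0.032 at 3 days, against 0.080, -0.20 and -0.28 overnight. Each rat was higher at 3 days, with a difference of 0.58 (95% CI 0.19 to 0.96). It is outside the rule for leading genes and is named because its p was seen. Over the list of kinases and G proteins 16 of 29 genes were higher and 13 lower with a median of 0.014, against a median of -0.025 and a lower share of 58.5% over all genes. The list's median was -0.034 without overnight rat 1 and -0.030 without 3-day rat 1. Of the 29, Akt1 and Gng7 lay under an unadjusted p of 0.05, beside 1.93% of all probes. Both are leading genes chosen by their p, so that count is no support for a difference.

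Foxq1 and Sfrp4 had every measured pair positive at 3 days and negative overnight. Foxq1, a forkhead transcription factor, had 0.012 and 0.14 (rats 1 and 3) at 3 days, against -0.66, -0.72 and -0.20 overnight. The 3-day values were near 0 and rats 1 and 2 overnight stood far on the negative side, with a difference of 0.60 (95% CI 0.16 to 1.03). Sfrp4, a secreted Wnt antagonist, had 0.037 and 0.18 (rats 1 and 2) at 3 days, against -0.66, -0.057 and -0.21 overnight. Its difference of 0.42 (SE 0.17) was 0.24 without overnight rat 1.

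Of 750 probes with a single symbol, 9 had every measured pair of one time on the positive and every one of the other on the negative side, 4 positive at 3 days (Foxq1, Sfrp4, Grb2 and Gng7) and 5 negative at 3 days. The 5 were Acvrl1 and Smad4, a receptor and the common mediator of TGF-beta family signalling, Sdc4, Mif and Rpl4. Acvrl1 had -0.015, -0.16 and -0.047 at 3 days, against 0.18, 0.27 and 0.11 overnight (difference -0.26, SE 0.15). Smad4 had -0.14, -0.063 and -0.15 at 3 days, against 0.071, 0.16 and 0.018 overnight (difference -0.20, SE 0.15). Mif, macrophage migration inhibitory factor, had -0.016, -0.00032 and -0.039 at 3 days, against 0.19, 0.20 and 0.12 overnight, and its paralogue Ddt had -0.11, -0.0045 and 0.091 at 3 days, against -0.13, -0.21 and -0.11 overnight. The differences of the 2 paralogues had opposite signs, -0.19 for Mif (SE 0.13) and 0.14 for Ddt (SE 0.11).

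The 3 microtubule genes named here were positive in every pair at both times and differed in direction. Stmn1, the microtubule-destabilising protein stathmin, had 0.53, 0.66 and 0.78 at 3 days, against 0.17, 0.050 and 0.36 overnight. All 3 rats were higher at 3 days, by 0.36, 0.61 and 0.42, and the difference was 0.46 (95% CI 0.033 to 0.90). With the low-salt rat as a block it did not pass either (adjusted p = 0.553). Dynll1, a light chain of dynein, went the other way with 0.44, 0.23 and 0.084 at 3 days, against 0.59, 0.55 and 0.50 overnight (difference -0.30, SE 0.13). Tubb5, a beta tubulin, had 0.37, 0.60 and 0.38 at 3 days, against 0.30, 0.23 and 0.47 overnight, with a difference of 0.11 (SE 0.12).

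Other leading genes of the lower side were Tsc22d1, Vcam1, Sdc4, Parp1 and Nsfl1c. They do not stand for a direction of stress genes. The list of stress and immediate early genes had 4 of 11 higher and 7 lower, against a lower share of 58.5% over all genes. Its median was -0.098, and 0.058 without overnight rat 1. In that list 1 gene lay under an unadjusted p of 0.05 in each direction, Foxq1 higher and Tsc22d1 lower. Tsc22d1, a transcription factor induced by TGF-beta and osmotic stress, had 0.43, -0.062 and 0.27 at 3 days, against 1.07, 0.47 and 0.55 overnight. Each rat was lower at 3 days, and the difference was -0.48 (95% CI -0.87 to -0.10). Without overnight rat 1, the highest of the values, it was -0.30. Vcam1, the endothelial adhesion molecule that captures leukocytes, had 0.35 and -0.16 (rats 1 and 3) at 3 days, against 0.74, 0.64 and 0.39 overnight. Both 3-day pairs lay below all 3 overnight pairs (difference -0.49, 95% CI -0.87 to -0.12). Sdc4, a heparan sulphate proteoglycan of focal adhesions, had -0.14, -0.18 and -0.090 at 3 days, against 0.10, 0.16 and 0.027 overnight. The differences by rat were -0.24, -0.34 and -0.12, and the group difference was -0.23 (SE 0.081).

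Parp1, which signals DNA breaks, had 0.014 and -0.40 (rats 1 and 3) at 3 days, against 0.12, 0.21 and 0.32 overnight (difference -0.41, SE 0.16). Nsfl1c, a cofactor of the p97 ATPase in membrane fusion, had 0.038, -0.48 and -0.14 at 3 days, against 0.054, 0.056 and 0.19 overnight. Rat 1 hardly differed and rats 2 and 3 were lower at 3 days, with a difference of -0.29 (SE 0.13) that was -0.15 without 3-day rat 2. Mt2A, a metallothionein whose pair values overlapped between the times and which is not a leading gene, was positive in every pair, with 0.35, 0.096 and 0.46 at 3 days, against 0.61, 0.45 and 0.65 overnight. All 3 rats were lower at 3 days by a difference of -0.27 (SE 0.13), which was -0.16 without 3-day rat 2.

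The other leading genes had larger unadjusted p-values, all above 0.05. On the higher side these were Selenop (the plasma carrier of selenium, 0.18), Rbck1 (part of the linear ubiquitin ligase, 0.14), Ap2b1 (a clathrin adaptor subunit, 0.18), Scnn1a, Ddt and Ptgfrn (a tetraspanin-associated membrane protein, 0.22), with standard errors from 0.085 to 0.18. On the lower side they were Zranb2 (a splicing factor, -0.22), Ddx39a (an RNA helicase, -0.19), Scaf8 (a partner of RNA polymerase II, -0.20) and Slco1a4 (an organic anion transporter, -0.43), with standard errors from 0.091 to 0.21. The Ptgfrn difference was 0.11 without overnight rat 1. Slco1a4 had only -0.71 and -0.25 (rats 1 and 2) at 3 days, against -0.18 and 0.073 (rats 1 and 3) overnight.

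**Figure D3:**
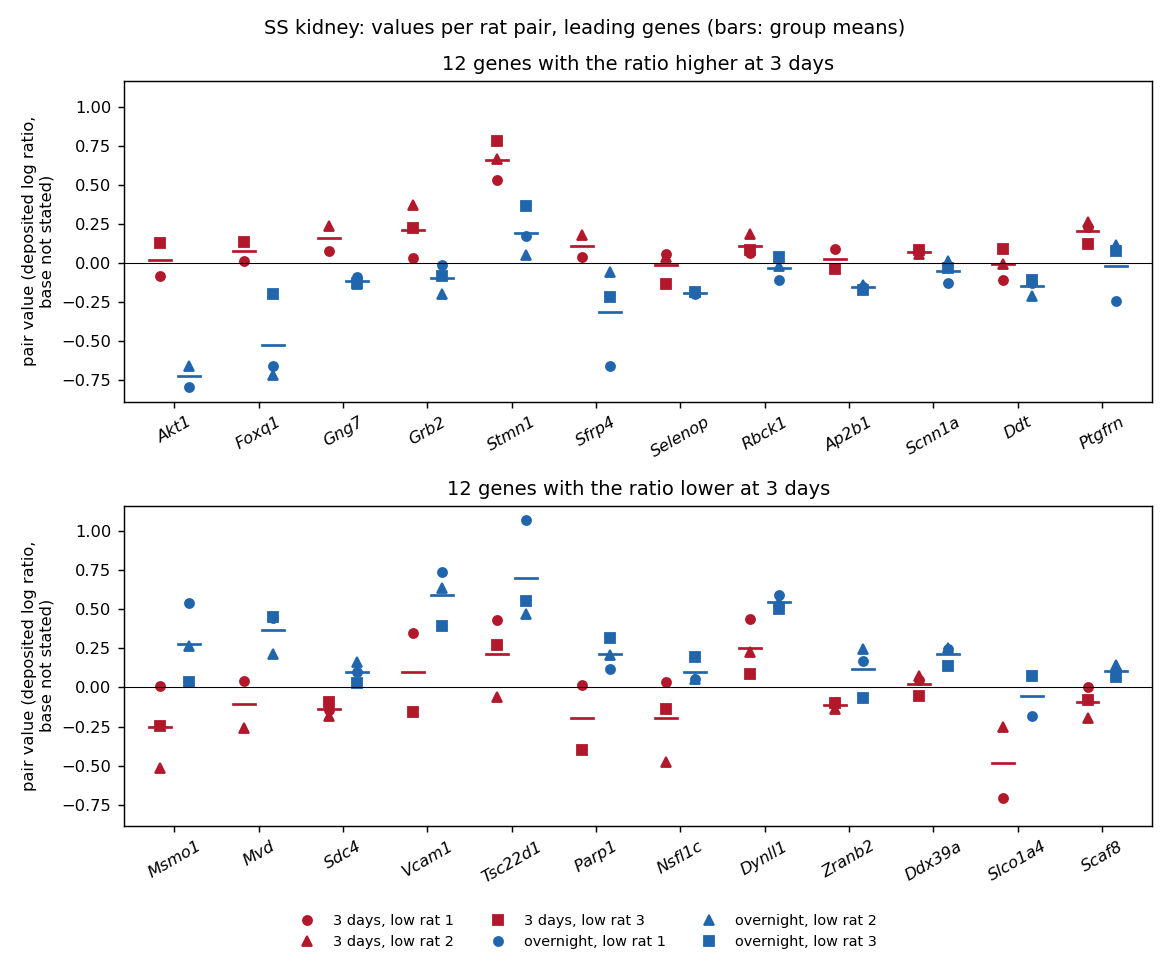
Pair values (deposited log ratio, y axis) of the 24 leading genes in SS kidney, 3 days in red left of overnight in blue, with the marker shape giving the low-salt rat and the bar the group mean. The times do not overlap for any of these genes because they were chosen for that.

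Set against 0, which asks whether high and low salt differed at a time, 3 of 883 probes (0.34%) passed at 3 days and 13 of 1139 (1.14%) overnight. Without adjustment 108 (12.2%) and 174 (15.3%) lay under 0.05. The 3 at 3 days were Serpinh1, the collagen chaperone, Serpina3n, an acute-phase serine protease inhibitor, and Tubb5, all positive. Leaving out 3-day rat 1 or rat 2 took that count to 0, and leaving out rat 3 to 10. The 13 overnight were Timp1, Csnk2b, Fntb, Serpinh1, Serpina3n, Tsc22d1, Dynll1, Mt2A, Vcam1, Col3a1 and Calr on the positive side (0.966%), and Akt1 and Hpd on the negative side (0.176%). Leaving out overnight rat 1 or rat 3 took that count to 0, and leaving out rat 2 to 6. With the low-salt rat as a fixed block the counts were 24 at 3 days and 46 overnight. In a test against 0 that block takes the spread between low-salt rats out of the error. Those counts therefore do not measure the spread between pairs. With the rat as a random block, chosen after seeing the data, the counts were 5 and 15. A gene past the test at one time and not at the other is not shown to differ between the times.

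The difference itself was tested for 11 of those 14 genes, and it passed for 0 of them. Serpinh1 had 0.86, 0.55 and 0.39 at 3 days, against 0.73, 0.57 and 0.36 overnight, and its difference of 0.049 had an interval of -0.25 to 0.35. Serpina3n had 0.97 and 0.78 (rats 1 and 2) at 3 days, against 0.91, 0.53 and 0.52 overnight (difference 0.22, SE 0.18). Calr, the calcium-binding chaperone calreticulin, had 0.29, 0.36 and 0.32 at 3 days, against 0.34, 0.24 and 0.41 overnight. Its difference was -0.0097 (95% CI -0.22 to 0.20). Col3a1, a fibrillar collagen, had 0.87, 0.34 and 0.34 at 3 days, against 1.23, 0.47 and 0.43 overnight, with rat 1 the highest at both times. Its difference of -0.20 (SE 0.21) was 0.066 without overnight rat 1. Hpd, an enzyme of tyrosine breakdown, had -0.65, -0.23 and -0.11 at 3 days, against -0.63, -0.37 and -0.46 overnight, all negative. Timp1, Csnk2b and Fntb did not have a value in at least 2 pairs of each time and were not tested for the difference.

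Some genes stood far from 0 at both times. Both groups are taken to share their low-salt rats, so the same side at both times is not 2 independent measurements. A mean of 0.5 or more on one side in both groups was found for 19 genes, 11 positive and 8 negative, and their differences ran from -0.20 to 0.29 with standard errors from 0.14 to 0.50. Aadat, an aminotransferase of kynurenine and aminoadipate, had -1.57, -0.51 and -0.25 at 3 days, against -0.94, -0.999 and -0.43 overnight. Its difference was 0.0095 with a wide interval (-0.79 to 0.81), rat 1 being lower and rats 2 and 3 higher at 3 days. Hao2, a peroxisomal hydroxyacid oxidase of proximal tubule, had -1.30, -0.56 and -0.34 at 3 days, against -0.59, -1.12 and -0.65 overnight, rat 1 again lower and rats 2 and 3 higher at 3 days. Acsm2, a mitochondrial acyl-CoA synthetase, had -1.69, -0.16 and -0.30 at 3 days, against -0.73, -1.17 and -0.16 overnight. Cyp2c23, the main arachidonic acid epoxygenase of rat kidney, had -1.17, -0.55 and -0.053 at 3 days, against -0.47 and -0.73 (rats 1 and 3) overnight. Pdgfra, a receptor of platelet-derived growth factors, had 1.27, 0.76 and -0.43 at 3 days, against 1.01, 0.56 and 0.11 overnight, with rat 3 far below the others at both times.

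Among the gene lists with at least 5 tested genes, none held a gene past the adjusted threshold. Ribosomal proteins and translation factors, a list that by its prefix also holds the S6 kinase gene Rps6kb1, had 29 of 34 genes lower with a median of -0.080, and 0 of the 34 lay under an unadjusted p of 0.05. Its members with the largest differences were Rpl17-ps16 (-0.19, SE 0.11) and Rpl35 (-0.18, SE 0.14), and the median was -0.011 without 3-day rat 3 and -0.012 without overnight rat 2. Ribosomal protein probes can cross-hybridise with many processed copies and are uncertain one by one. Actin and smooth muscle genes had 12 of 14 lower with a median of -0.085, led by S100a11 (-0.14, SE 0.10) and Myl12b, a myosin light chain (-0.14 on one probe and -0.054 on another), and 0 under 0.05. That median was -0.011 without overnight rat 1, and with arrays turned by dye it was 0.076 with 9 of 14 higher. Over all genes the lower share was 58.5%, which is the share to read these counts against, and with arrays turned by dye the median of all genes was 0.021 with 431 of 749 higher.

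Extracellular matrix genes had 14 of 19 lower with a median of -0.049 and 0 under 0.05. That direction turned with rat 3: without its 3-day pair 11 of 17 were higher with a median of 0.083, and without rat 3 at both times 10 of 17 were higher with a median of 0.060. The matrix protein Sparc stood at -0.10 (SE 0.12), and at 0.014 without 3-day rat 3, while Col1a1, the other fibrillar collagen chain tested, stood at 0.15 (95% CI -0.53 to 0.83). Inflammation and adhesion genes had 5 of 7 lower with a median of -0.12, and Vcam1 alone lay under 0.05. The median was 0.011 with 4 of 6 higher without 3-day rat 3, -0.012 without overnight rat 1 and 0.055 with 6 of 7 higher with arrays turned by dye. Irf1, an interferon response factor, had -0.19 (SE 0.20) and -0.034 without overnight rat 1. The complement component C3 had -0.12 (SE 0.18), which was 0.066 without overnight rat 1, and Cd44, a hyaluronan receptor, had -0.18 (SE 0.21). Glutathione and oxidative stress genes had 11 of 18 lower with a median of -0.044, and respiratory chain and citrate cycle genes had 16 of 25 lower with a median of -0.034, both with 0 under 0.05.

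Of 10 sodium and water transport genes 3 were higher and 7 lower with a median of -0.021, and 0 lay under 0.05. Scnn1a, the alpha subunit of the epithelial sodium channel, had 0.074, 0.061 and 0.086 at 3 days, against -0.13, 0.012 and -0.033 overnight. Each rat was higher at 3 days but the difference was 0.12 (95% CI -0.064 to 0.31). Atp1b3, a beta subunit of the sodium pump, had 0.00066, -0.027 and -0.29 at 3 days, against 0.18, 0.12 and 0.058 overnight (difference -0.22, SE 0.12, and -0.13 without 3-day rat 3), while Atp1b1, the main renal beta subunit, had a difference of 0.11 (SE 0.13). Slc12a1, the sodium-potassium-chloride cotransporter of the thick limb, stood at 0.029 (SE 0.11) and Sgk1, an aldosterone-induced kinase, at -0.069 (SE 0.17). Of 8 genes of the renin-angiotensin and steroid list 3 were higher and 5 lower, and the angiotensinogen gene Agt had 0.18 with an interval of -0.50 to 0.87.

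**Figure D4:**
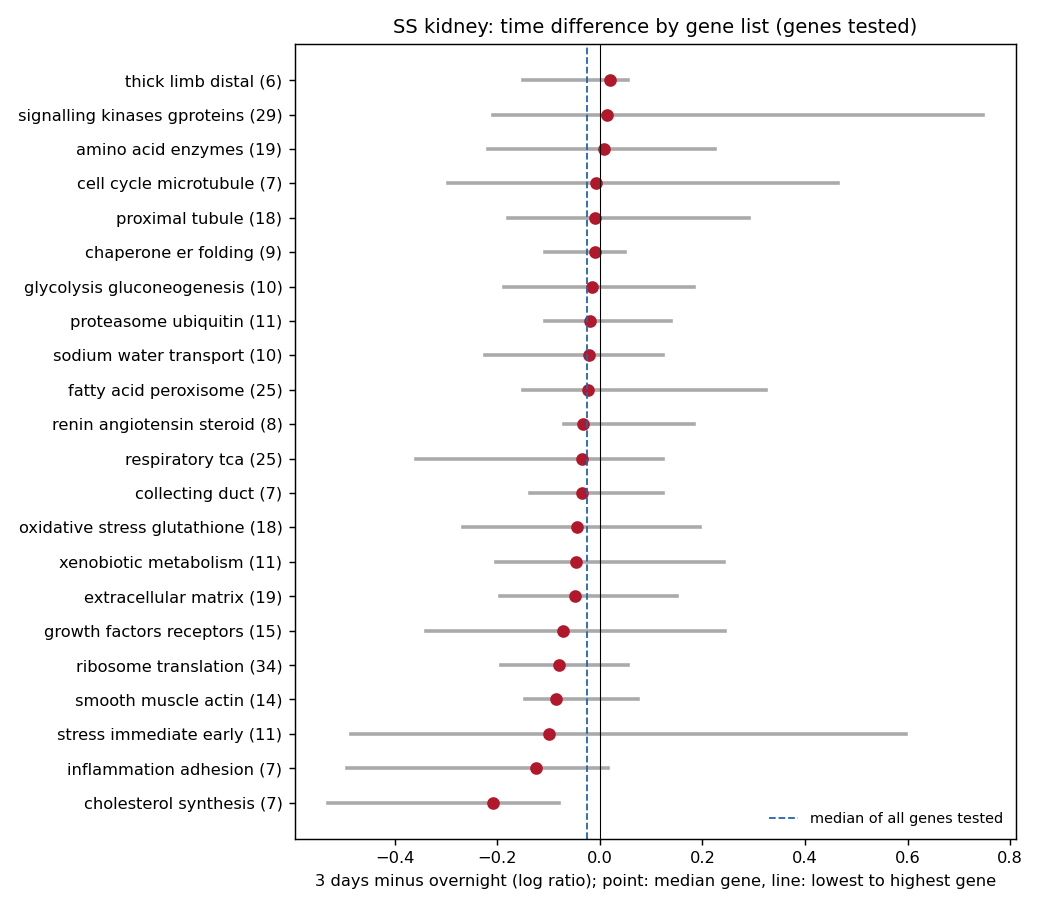
Difference of 3 days minus overnight (log ratio, x axis) in SS kidney for gene lists with at least 5 tested genes, the point giving the median gene and the grey line the lowest to the highest gene. Cholesterol synthesis has the lowest median (-0.21), and it is the list with every gene below 0.

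Markers of nephron segments were read as the balance between the 2 rats of an array. The mean over proximal tubule markers (5 of 9 in every pair) was -0.99, -0.30 and -0.21 at 3 days, against -0.41, -0.89 and -0.37 overnight, for rats 1, 2 and 3. Rat 1 was the most negative at 3 days and rat 2 overnight, so the group ranges overlapped. Thick limb and distal markers (3 of 6) ran from -0.29 to -0.094 at 3 days, against -0.22 to -0.12 overnight, and collecting duct markers (3 of 7) from -0.11 to -0.028, against -0.18 to -0.0000879. Kdr, the only tested member of the endothelial markers chosen here, ran from -0.25 to 0.19 at 3 days, against -0.28 to 0.15 overnight. Hbb, the only tested member of the blood markers chosen here, ran from -0.13 to 0.018, against -0.36 to 0.051. Its difference was 0.12 (SE 0.14), while that of Hba-a1, another globin tested outside these markers, was -0.020 (SE 0.12). The smooth muscle marker Tagln had 1.59, 0.37 and 0.54 at 3 days, against 1.51, 0.26 and 0.50 overnight, highest in rat 1 at both times. Acta2, the smooth muscle actin, had -0.38 and 0.15 (rats 1 and 2) at 3 days, against 0.098, -0.29 and 0.072 overnight. For podocytes 0 of 4 markers were tested and for immune cells C1qb alone of 6. The part of these markers in the differences was not tested, and in whole tissue fewer cells of a type and less RNA per cell cannot be told apart.

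The same contrast in SS-13BN/Mcw had larger differences by value. In SS-13BN/Mcw 0 of 897 probes (0%) passed the adjusted threshold, with 101 (11.3%) under an unadjusted p of 0.05, and with the low-salt rat as a block 10 (1.11%) passed. Pair values did not overlap between times for 204 probes (22.7%) in SS-13BN/Mcw, against 66 (7.5%) in SS. Over the 822 probes tested in both strains the median absolute difference was 0.0747 in SS and 0.132 in SS-13BN/Mcw. These are descriptions of 2 sets of 6 pairs. In the test of the difference itself, SS minus SS-13BN/Mcw, 0 of 822 (0%) passed with a smallest adjusted p of 0.972, and 20 (2.43%) lay under 0.05 unadjusted.

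Of the 24 leading genes 21 were tested in SS-13BN/Mcw, where 16 had the sign they had in SS. Counted without regard to sign, 7 lay under an unadjusted p of 0.05, beside 11.3% of all probes. The p in SS-13BN/Mcw uses the same estimate of the spread as the SS p by which these genes were chosen. The 7 are therefore no independent support for a difference. The share of all probes with the same sign in both strains was not counted, so the 16 have no background to be read against. Tsc22d1 had a time difference of -0.48 in SS and -0.52 in SS-13BN/Mcw (adjusted p = 0.359). Dynll1 had -0.30 in SS and -0.40 in SS-13BN/Mcw (adjusted p = 0.359). Scnn1a had 0.12 in SS and 0.37 in SS-13BN/Mcw (adjusted p = 0.276), and Ddt 0.14 and 0.41 (adjusted p = 0.276). Foxq1 differed more by value, at 0.60 in SS and 0.049 in SS-13BN/Mcw, but the difference between strains of 0.55 (SE 0.28) had adjusted p = 0.972. Among the 21, Gng7 alone lay under an unadjusted p of 0.05 for that difference (0.30, adjusted p = 0.972).

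The 4 genes with the smallest p for the difference between strains were Pdgfa, Tubb5, Hsd11b1 and Gnrhr. Pdgfa, a platelet-derived growth factor chain, had a time difference of -0.15 in SS and 0.49 in SS-13BN/Mcw, a gap of -0.65 (SE 0.18, adjusted p = 0.972). Tubb5 had 0.11 in SS and -0.43 in SS-13BN/Mcw (adjusted p = 0.972). Hsd11b1, which regenerates active glucocorticoid, had 0.047 in SS and -0.94 in SS-13BN/Mcw (adjusted p = 0.972), and its gene lies on chromosome 13 in the RefSeq rat gene table. Whether the replaced chromosome has a part in that gap was not tested. Gnrhr, the receptor of gonadotropin-releasing hormone, had -0.071 in SS and 0.51 in SS-13BN/Mcw (adjusted p = 0.972). None of the 4 passed adjustment over the 822 probes.

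**Figure D5:**
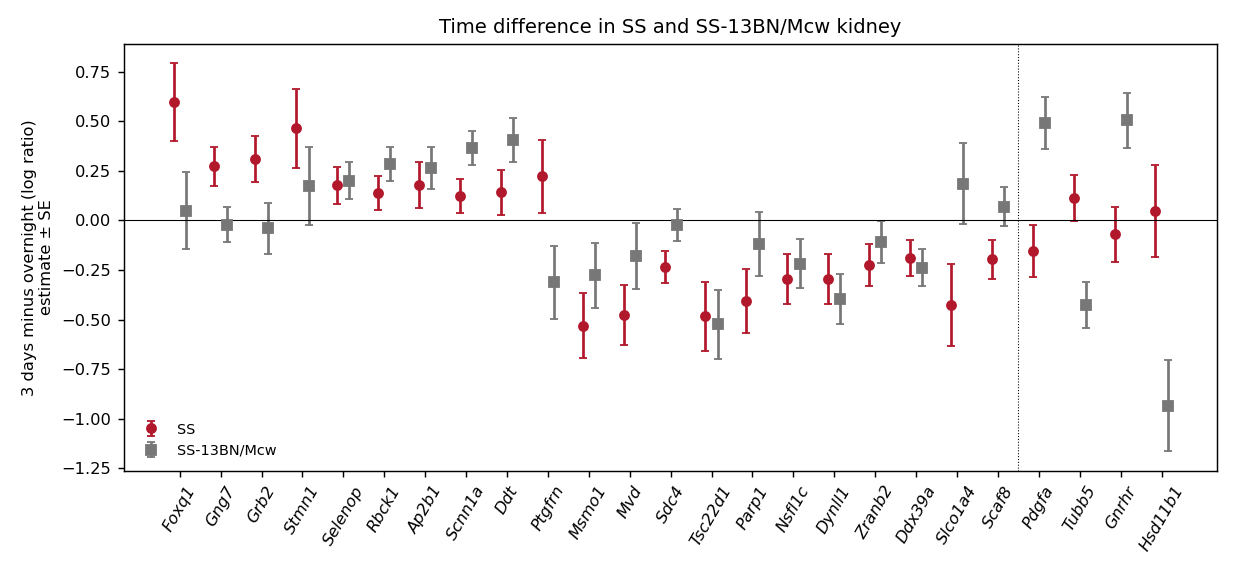
Difference of 3 days minus overnight (log ratio, estimate ± SE) in SS (red) and SS-13BN/Mcw (grey) for the 21 leading genes tested in both strains and, right of the dotted line, the 4 genes with the smallest p for the difference between strains. Tsc22d1 and Dynll1 stand below 0 in both strains, while Hsd11b1 stands at 0.047 in SS and -0.94 in SS-13BN/Mcw.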

How the data were processed

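The authors deposited 1 score per probe and array, a log ratio, and no source used here gives its base, numerator or processing. Of 3742 probes 1766 had a value, and of those 1426 had 1 gene symbol, 29 several and 311 none. Symbols came from the platform annotation, 1421 of them updated through the RefSeq rat gene table by gene number. Each array was centred on its median (largest deposited array median 0.0668) and the 2 swapped arrays of a pair were averaged. Signs were not turned, because swapped arrays of the SS pairs correlated positively once the mean of their dye orientation was removed (r from 0.331 to 0.713, and from -0.0502 to 0.427 before that step).

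Pair values were fitted with limma (1 coefficient per group, all 12 pairs, 8 residual degrees of freedom, eBayes, two-sided, Benjamini-Hochberg adjustment at 0.05). A probe was tested with at least 2 of 3 pairs in each group compared, which left 880 probes of 749 genes for SS, 761 of them with all 6 pairs. All intervals are at the 95% level and come from the fit without a block. The script was also run on simulated pair values with independent errors and no shared rat, dye or slide effect. That run checks the code and says nothing about such dependence.

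Low-salt rats carry the same numbers at both times in the titles, which is taken here as the same animals, though the titles do not say so in words. Deviations from the group mean correlated between times with r = 0.494 for rat 1, -0.024 for rat 2 and 0.620 for rat 3. A fit blocked on the low-salt rat was run as an alternative. Nothing else in the sources used here says how the samples were taken, so p-values of the fit without a block measure the spread between these pairs.

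Genes were named by rule: the 12 a direction with the smallest p among non-overlapping genes, genes that changed side, genes past the test against 0, 4 members of each list by p, 6 far from 0 at both times, and 4 by the test between strains. Members and lists were chosen with earlier results of these data known. Alternatives were other scalings, other filters, turned arrays, an array-level fit, the groups alone, robust eBayes, blocks and leaving out pairs. Fits used limma 3.58.1 and statmod 1.5.0 in R 4.3.3. Figures used matplotlib 3.10.9 in Python 3.11.15.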

Additional observations from a re-analysis of the deposited data

How the results depend on the processing

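In SS, 3 days minus overnight had 0 probes past the adjusted threshold under every alternative run, the replicate block included. The count under an unadjusted p of 0.05, 17 as reported, was 31 with arrays scaled to one spread, 28 with quantile normalization, 34 with the replicate block, 35 with a random block chosen after seeing the data, 32 with pairs of 1 orientation kept, 10 with all 3 pairs required and 73 with arrays turned by dye, and 8 to 37 without single pairs or rats. The count against 0 at 3 days, 3 as reported, was 9 with scaled arrays, 18 with quantile normalization, 24 with the replicate block, 5 with the random block, 38 in the array-level fit, 1 with all 3 pairs, 0 with the group alone, 344 turned by dye and 0 to 10 without single pairs. Overnight, 13 as reported, it was 51, 67 and 46 with scaling, quantile normalization and the replicate block, 49 in the array-level fit, 31 with the group alone, 325 turned by dye and 0 to 6 without single pairs. In SS-13BN/Mcw, 3 days minus overnight had 0 as reported, 10 with the replicate block and 8 in the array-level fit. The difference between strains had 0 to 1 without single pairs, the 1 without 3-day SS rat 3, and 0 under the other alternatives run. Of the 24 leading genes 10 changed sign with arrays turned by dye and 0 under the other alternatives that gave them a value. The causes of these changes were not tested, and the replicate block left the adjusted counts of the SS contrast and of the strain difference at 0. Precision is limited by 3 pairs a group and by missing values. Time and any slide order behind the numbers in the titles cannot be told apart in SS.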

Other observations

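Some single genes outside the described groups had values a reader may want to follow, none past adjustment. Dbp, an output gene of the circadian clock, had -0.35, 0.21 and 0.30 at 3 days, against -0.39, -0.53 and 0.086 overnight. Each rat was higher at 3 days, with a difference of 0.33 (SE 0.18) that was 0.21 without overnight rat 2 and 0.53 without 3-day rat 1, and in SS-13BN/Mcw the difference was 0.58 (adjusted p = 0.359). The hour of tissue collection was not given in the sources used here. Cpt1b, a carnitine palmitoyltransferase of fatty acid oxidation, had -0.027, 0.021 and 0.47 at 3 days, against -0.63, 0.0058 and 0.11 overnight, with a difference of 0.32 (SE 0.19) that was 0.097 without overnight rat 1. Sult1a1, a sulfotransferase, had -0.20, 0.13 and 0.19 at 3 days, against -0.45, -0.29 and 0.13 overnight, higher in each rat, with a difference of 0.24 (SE 0.16) that was 0.12 without overnight rat 1.

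Growth factor genes had differences of both signs. Vegfa, the vascular endothelial growth factor, had -0.17, 0.20 and 0.11 at 3 days, against -0.20, -0.36 and -0.041 overnight, with a difference of 0.25 (SE 0.15), each rat being higher at 3 days. Igfbp3, a carrier of insulin-like growth factors, had 0.028, -0.021 and 0.066 at 3 days, against 0.57, 0.12 and 0.15 overnight, with a difference of -0.26 (SE 0.15), each rat being lower, and of -0.11 without overnight rat 1. Over the list of growth factors and receptors 5 of 15 genes were higher and 10 lower, with a median difference of -0.071 against -0.025 for all genes.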
